A study of Mus musculus with 8 samples.

Results

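The genes described here encode matrix metalloproteinases (MMPs), ADAMTS proteases, the ADAMTS-like proteins (ADAMTSL) and the tissue inhibitors of metalloproteinases (TIMPs). They are the protein-coding genes of the deposited table whose symbol is Mmp with a number, Adamts or Adamtsl with a number, or Timp1 to Timp4, 48 of 21649 genes: 20 Mmp, 19 Adamts, 5 Adamtsl and 4 Timp genes. RNA was sequenced from mouse cells, purified by fluorescence-activated sorting, that the labels call non-vascular smooth muscle cells, with 3 libraries from bladder, 3 from intestine and 2 from lung. Every group carried Cspg4-Dre, Acta2-CreERT and R26-GFP. All mice received tamoxifen into the peritoneum on 3 days, dosed at 0.75 mg for each 10 g they weighed and dissolved in corn oil at 20 mg/mL, so tissue is the only label that differs. Dre and Cre are site-specific recombinases, here driven by the genes of the NG2 proteoglycan and of smooth muscle actin, and tamoxifen activates the CreERT form. The labels give neither the gate of the sort, nor the age of the mice, nor how the recombinases combine at the reporter, nor whether the libraries of a tissue had separate mice as their source. The p-values therefore reflect no more than how far these libraries scatter, and that scatter may be technical.

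MMPs are zinc proteases that cleave collagens, other matrix proteins and cell surface proteins, and most are made as inactive precursors. ADAMTS proteases are secreted and bind the matrix: some cut the proteoglycans aggrecan and versican, some trim the ends of procollagens, and ADAMTSL proteins share their binding modules but lack the protease. TIMPs bind the active site of these enzymes and block it, and smooth muscle organs, which stretch and refill, are rich in the matrix that this system turns over.

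The libraries held 9.73 to 13.6 M reconstructed reads (fewest in bladder, at most 10.9 M), 19206 to 20357 genes above 0, and correlated at 0.967 to 0.975 across genes within a tissue (log2 values, genes being no independent replicates). All 8 smooth muscle markers examined were read in every library, Myh11, the smooth muscle myosin heavy chain, at 4423 to 6099 in bladder, 11371 to 12454 in intestine and 10378 and 10795 in lung. Of the 8, 4 were higher and 2 lower in intestine than in bladder, and 4 higher and 0 lower in lung (8 higher in each with the deposited scaling undone). Acta2, smooth muscle actin, passed in no pair. The 8 markers summed to 1543 to 1874 ppm of all values in bladder, 2464 to 2664 in intestine and 2657 and 2678 in lung. Markers of other cells were read too: 9 fibroblast markers summed to 4813 to 5298 ppm of all values in bladder, 3530 to 3751 in intestine and 2650 and 3057 in lung, and all 9 were lower in intestine and in lung than in bladder (3 and 8 of 9 with quantile normalization, 5 and 8 with the deposited scaling undone). Values are normalized read counts. Differences are log2(value + 1), tested with limma over all genes, and a gene is called higher or lower at a Benjamini-Hochberg adjusted p under 0.05. In bulk RNA, fewer cells of a type and less RNA per cell cannot be told apart. The libraries also differ in scaling, and genes with many reads per nt of exon moved together: in the densest class, 1 read per nt or more (339 tested genes), the median difference from bladder was -0.40 for intestine (SD over genes 0.67) and -0.42 for lung (0.78). In that class, 75.8% of the genes were called lower in intestine and 74.0% in lung than in bladder, against 23.3% and 21.8% of all tested genes.

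Most of these genes differed between the organs, and the differences divided into a large group highest in bladder, a group highest in lung and a small group highest in intestine. Of the 48 genes, 46 reached 10 in 2 or more libraries and were tested, and 44 differed among the 3 tissues by the F test, where 62.9% of all tested genes did. Intestine was called higher than bladder for 11 and lower for 22 members (28.7% and 23.3% of all tested genes, 51.9% in either direction), and the median difference of the tested members was -0.44, against 0.06 for all tested genes. Lung was called higher than bladder for 13 and lower for 21 (19.2% and 21.8% of all, 41.0% in either direction), with a median of -0.37 against 0 for all genes; with the deposited scaling undone these counts became 16 and 12 and the median 0.10. Lung was called higher than intestine for 19 and lower for 13 (15.9% and 23.6% of all, 39.5% in either direction), with a median of 0.37 against -0.04. In 17 members bladder was called above both other tissues (13.5% of all tested genes), in 11 lung was (6.87%; 7 without lung replicate 2) and in 5 intestine was (15.4%). In the remaining 15, including the 2 untested ones, no tissue was above both others. Bladder was called below both others in 6 members (11.5% of all), intestine in 8 (8.00%; 16 members with quantile normalization) and lung in 8 (9.37%). Values with the deposited scaling undone are no longer adjusted for depth, and the median of all genes becomes 0.45 in intestine and 0.48 in lung, relative to bladder. Of all 18097 tested genes, 8312 were then called higher and 1937 lower in intestine, and 7944 and 1907 in lung. Bladder was then above both others in 9 members in place of 17. Of the 46 tested members, 4 (Mmp7, Mmp8, Mmp24 and Adamts13) reached a value of 10 in a single tissue, so that their passing the filter already favoured a difference.

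**Figure D1:**
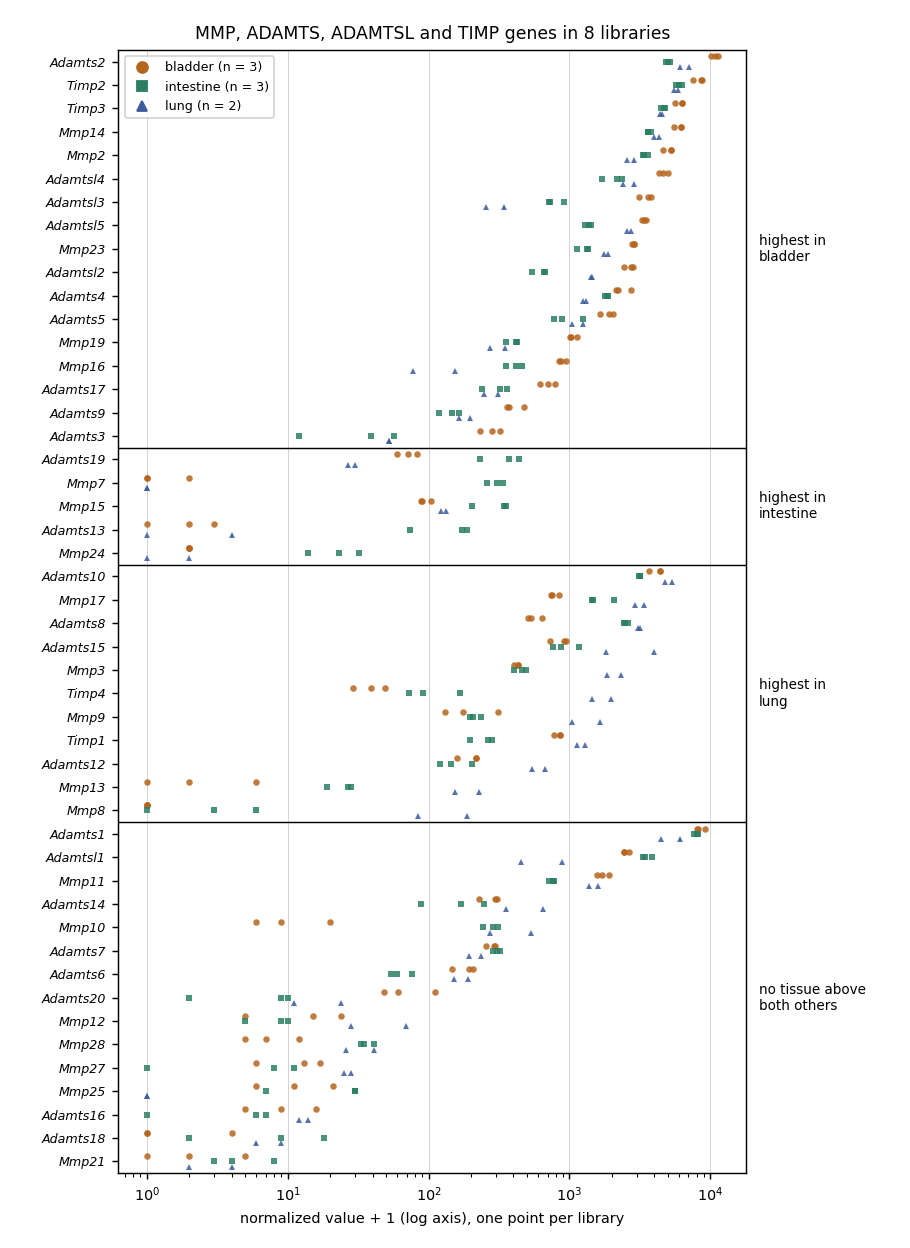
Normalized value plus 1 (log axis) of each of the 48 genes in each library, with bladder as circles, intestine as squares and lung as triangles, sorted by the tissue called above both others and then by level. The 17 genes of the top block sit highest in the bladder libraries, most by less than 10-fold, while Timp4, Mmp13 and Mmp8 in the third block are separated by larger gaps.

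**Figure D2:**
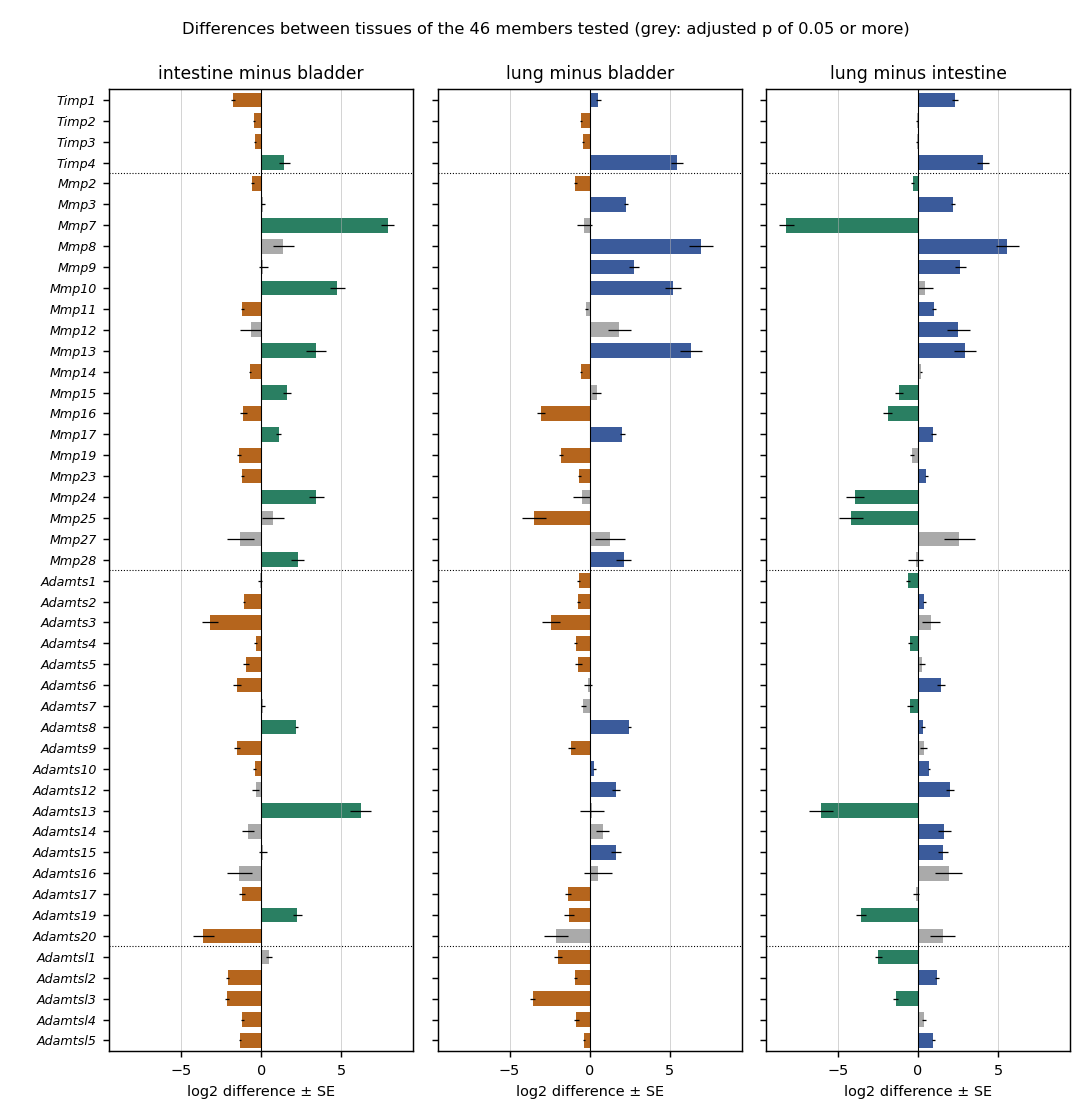
Log2 differences with their SE for the 46 tested genes in the 3 pairs of tissues, ordered as TIMP, MMP, ADAMTS and ADAMTSL genes; a coloured bar has the colour of the tissue in which the gene was called higher (bladder brown, intestine green, lung blue). Mmp7 has the longest bars toward intestine and Mmp8, Mmp13 and Timp4 the longest toward lung.

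The inhibitors did not move together: lung libraries held far more Timp4 RNA, intestine libraries little Timp1 RNA, and Timp2 and Timp3 were abundant in every library. Timp4, an inhibitor known from heart and other muscle (chromosome 6, 115218853 to 115229166, ENSMUSG00000030317), was at 48, 28 and 38 in bladder, 167, 72 and 90 in intestine, and 1973 and 1447 in lung. All lung libraries stood above all others, with a mean 45.0-fold that of bladder and 15.6-fold that of intestine. Timp4 differed by 5.47 in lung minus bladder (SE 0.37, adjusted p = 6.39e-06) and by 4.03 in lung minus intestine (SE 0.37, adjusted p = 3.15e-05). Intestine was also above bladder, though this call was lost with quantile normalization (0.61, adjusted p = 0.174). Timp4 differed by 1.44 in intestine minus bladder (SE 0.33, adjusted p = 0.0053). Timp1, a secreted inhibitor known to be induced by cytokines and injury (chromosome X, 20736405 to 20740974), was at 851, 781 and 852 in bladder, 197, 263 and 280 in intestine, and 1130 and 1294 in lung. Intestine was lowest without overlap, 3.36-fold below bladder and 4.91-fold below lung. Timp1 differed by -1.76 in intestine minus bladder (SE 0.14, adjusted p = 8.39e-06) and by 2.31 in lung minus intestine (SE 0.16, adjusted p = 4.5e-06). Lung was above bladder by less, and that call was lost without bladder replicate 2 (adjusted p = 0.0678) or lung replicate 2 (0.106). Timp1 differed by 0.55 in lung minus bladder (SE 0.16, adjusted p = 0.0209).

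Timp2, which also takes part in activating the MMP2 precursor at the cell surface (chromosome 11, 118191887 to 118246566), was at 8708, 8636 and 7570 in bladder, 5994, 5742 and 6268 in intestine, and 5551 and 5880 in lung. Timp3, which is held in the matrix and also blocks ADAM and ADAMTS proteases (chromosome 10, 86136236 to 86185370), was at 6340, 6260 and 5582 in bladder, 4699, 4433 and 4769 in intestine, and 4380 and 4527 in lung. Bladder was highest for both, with differences from it of -0.47 and -0.39 in intestine and -0.54 and -0.44 in lung (SE 0.06 to 0.07, adjusted p of 0.000261 to 0.000798). Before scaling, Timp2 had 1.67 to 1.77 reads per nt of exon and Timp3 0.611 to 0.654 over all 8 libraries. All tested genes in the density class of Timp2 had medians of -0.40 in intestine and -0.42 in lung, and those in the class of Timp3, 0.5 to 1 read per nt, -0.28 and -0.18. With quantile normalization or the deposited scaling undone, neither passed the test against bladder. Per length, Timp2 was the most densely read of the 48 genes, with a mean of 1.73 reads per nt, ahead of Adamts1 (1.42) and Mmp2 (1.12). Timp1, Timp3 and Timp4 each overlap a synapsin gene (Syn1, Syn3 and Syn2) on the opposite strand, and the kit does not mark strand. Syn2 was at 346 to 417 in bladder, 880 to 1015 in intestine and 377 and 436 in lung, a pattern unlike that of Timp4, which was highest in lung.

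**Figure D3:**
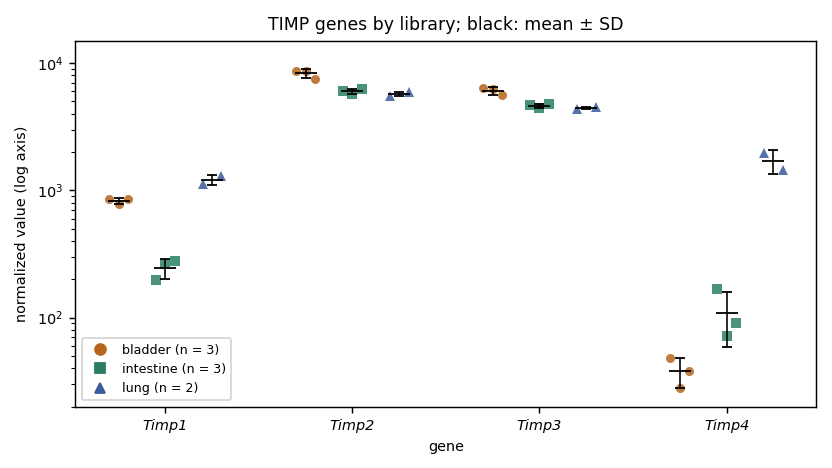
Normalized values (log axis) of the TIMP genes in each library, with the mean and SD of each tissue in black. Timp4 ranges from 28 in a bladder library to 1973 in a lung library, while every value of Timp2 lies between 5551 and 8708.

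Of 19 tested MMP genes, 7 exceeded bladder in intestine and 6 were below it (7 and 8 with quantile normalization). In lung, likewise, 7 exceeded bladder and 6 were below it (9 and 4 with the deposited scaling undone). The medians were 0.14 in intestine and 0.44 in lung. The shares of all tested genes were 28.7% higher and 23.3% lower in intestine, and 19.2% and 21.8% in lung. A run of 7 secreted MMP genes on chromosome 9, from Mmp13 to Mmp7 (7272514 to 7699586, mm39), held the largest differences among the MMPs. No other gene of the table lies between these neighbours, whose gaps are 2.9 to 110.2 kb, and the order is Mmp13, Mmp12, Mmp3, Mmp10, Mmp8, Mmp27 and Mmp7. Within the run, 3 genes (Mmp3, Mmp8 and Mmp13) were highest in lung, Mmp10 was high in both lung and intestine, and Mmp7 was read almost only in intestine.

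Mmp3, stromelysin, which degrades many matrix proteins and activates other MMPs (chromosome 9, 7445822 to 7455975, ENSMUSG00000043613), was at 434, 433 and 406 in bladder, 402, 493 and 462 in intestine, and 1838 and 2331 in lung. Lung stood 4.91-fold above bladder and 4.61-fold above intestine, while bladder and intestine overlapped. Mmp3 differed by 2.28 in lung minus bladder (SE 0.14, adjusted p = 2.56e-06) and by 2.20 in lung minus intestine (SE 0.14, adjusted p = 2.34e-06). Mmp13, a collagenase (chromosome 9, 7272514 to 7283331), was at 5, 1 and 0 in bladder, 18, 26 and 27 in intestine, and 153 and 226 in lung. The groups did not overlap in any pair, and the order was lung, intestine, bladder; lung against intestine was lost without lung replicate 2 (adjusted p = 0.0574). Mmp13 differed by 6.35 in lung minus bladder (SE 0.69, adjusted p = 9.17e-05), by 3.41 in intestine minus bladder (SE 0.62, adjusted p = 0.00131) and by 2.94 in lung minus intestine (SE 0.69, adjusted p = 0.00818). Mmp10, the stromelysin closest to Mmp3 (chromosome 9, 7502353 to 7510241), was at 8, 19 and 5 in bladder, 285, 308 and 243 in intestine, and 271 and 537 in lung. Bladder was far below both others, and lung and intestine overlapped (adjusted p = 0.495). Mmp10 differed by 4.76 in intestine minus bladder (SE 0.44, adjusted p = 2.07e-05) and by 5.22 in lung minus bladder (SE 0.49, adjusted p = 4.02e-05).

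Mmp7, matrilysin, which Paneth cells of the gut make to activate defensins (chromosome 9, 7692091 to 7699586), was at 0, 0 and 1 in bladder, 259, 305 and 335 in intestine, and 0 and 0 in lung. It was at least 118-fold higher in intestine than in lung, counting a floor of 3 reads per lung library, and its ratio to bladder was 749 with a 95% counting interval of 134 to 29600, since bladder held 1 read in all. Paneth cell markers moved with it: all 6 were higher in intestine than in both other tissues, their sum was 548 to 600 ppm in intestine against 7.7 to 19.6 in bladder and 5.6 and 7.0 in lung, Defa30 and Mptx2 were at 0 in bladder, and 5 of 6 were at 0 in lung, all but Lyz1. Their part in the Mmp7 result was not tested. Mmp8, the collagenase of neutrophils (chromosome 9, 7558457 to 7568486), was at 0, 0 and 0 in bladder, 0, 5 and 2 in intestine, and 83 and 187 in lung. It was at least 37.3-fold higher in lung than in bladder, counting 3 reads per bladder library. Its mean in intestine, 2.33, lay below the floor of 3 reads there (2.607 to 2.874), so the ratio of 57.9 between the lung and intestine means is uncertain. The neutrophil genes S100a8 and S100a9 were also highest in lung, at 24 and 35 and at 45 and 44. In the other libraries they were at 0 to 3. Among all 10 leukocyte markers, 4 were higher and 4 lower in lung than in bladder, and 3 higher and 2 lower than in intestine. Their sum was lowest in lung (189 and 205 ppm, against 281 to 486 in bladder and 263 to 293 in intestine). Itgam, also among the 10, was at 4 and 6 in lung, 13 to 86 in bladder and 6 to 33 in intestine, and passed in no pair. The part of these markers in the Mmp8 result was not tested. Mmp12, the macrophage elastase, was at 4 to 23 in bladder, 4 to 9 in intestine and 27 and 68 in lung, higher in lung than in intestine (adjusted p = 0.0209, but 0.154 without lung replicate 2 and 0.0697 without intestine replicate 1). Mmp27 was at 0 to 27 and passed in no pair.

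**Figure D4:**
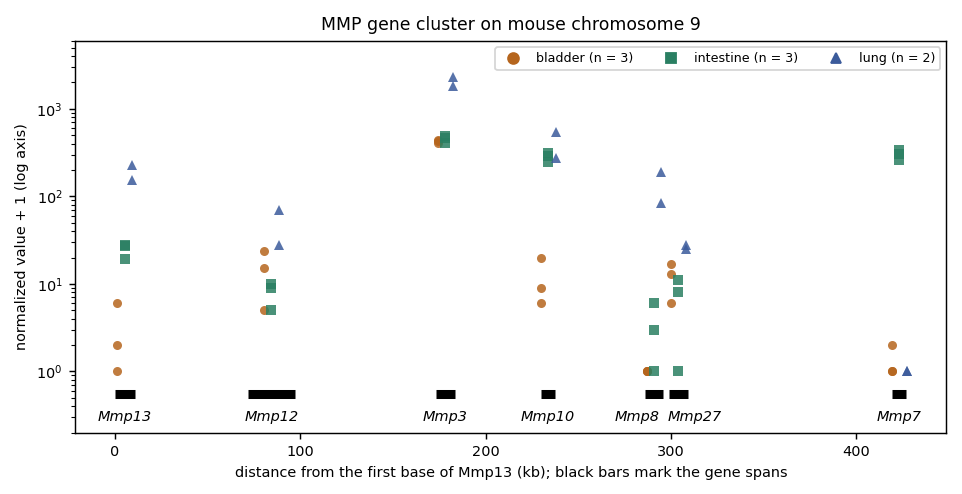
Normalized value plus 1 (log axis) of the 7 MMP genes of chromosome 9 against distance from the first base of Mmp13 in kb, 1 point per library, with gene spans as black bars. Lung libraries are on top from Mmp13 to Mmp3 and at Mmp8 and Mmp27, share the top with intestine at Mmp10 and are at 0 for Mmp7, where only intestine is high.

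Promoter sequence is shown for this run because no other gene with deposited values lies between its genes. Besides, 4 of the 7 were called above bladder in lung, and the run holds every AP-1 match found among the members with a promoter. RefSeq promoters (build GRCm38.p6, in which the coordinates below are given) matched 33 of the 48 members by symbol, with 36 start sites. All 7 genes of the run were matched. The members without a match lie outside the run and were not searched, among them Mmp9, Mmp17, Adamts8 and Adamts15. AP-1 is the FOS and JUN dimer that binds TGANTCA, a motif that reads the same on both strands. It was found in the 250 bases before the start in 5 of these 36 promoters, those of Mmp3, Mmp7, Mmp10, Mmp12 and Mmp13, and in 6.75% of all 32851 promoters. For Mmp12 and Mmp7, which have a pair of start sites each, a single site had it, and Mmp8 and Mmp27 had none. The 120 bases before the start are given 5′ to 3′ on the plus strand, with the AP-1 motif in capitals, for 4 genes that hold it and for Mmp8, which does not.
Mmp13, chr9:7272394-7272513: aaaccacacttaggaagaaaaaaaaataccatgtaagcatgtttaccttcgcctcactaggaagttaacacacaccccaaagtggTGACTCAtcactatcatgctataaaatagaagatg
Mmp3, chr9:7445702-7445821: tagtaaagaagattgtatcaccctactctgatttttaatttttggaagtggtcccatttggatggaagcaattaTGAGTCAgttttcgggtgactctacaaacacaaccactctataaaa
Mmp10, chr9:7502222-7502341: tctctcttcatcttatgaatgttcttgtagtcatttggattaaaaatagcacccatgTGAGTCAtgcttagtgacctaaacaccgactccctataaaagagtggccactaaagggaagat
Mmp7, chr9:7691970-7692089: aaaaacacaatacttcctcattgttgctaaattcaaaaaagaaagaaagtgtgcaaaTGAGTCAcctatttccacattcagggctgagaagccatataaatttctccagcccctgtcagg
Mmp8, chr9:7558309-7558428: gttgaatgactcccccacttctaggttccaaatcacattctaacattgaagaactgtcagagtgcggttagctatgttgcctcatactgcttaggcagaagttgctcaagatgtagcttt
The motif begins 35 bases before the start in Mmp13, 46 in Mmp3 and 63 in Mmp10 and Mmp7. The TATA box letters TATAAA, searched on the plus strand, were in the same window in 7 of the 36 promoters and in 7.59% of all, among them these 4. The CArG box, the binding motif of serum response factor in muscle genes, was in 0 of the 36 promoters and in 1.47% of all, both strands searched. A match describes the letters and does not show that a factor binds there. The part of AP-1 in the differences of these genes was not tested.

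The gelatinases, which digest denatured collagen and basement membrane, went opposite ways. Mmp2, made by fibroblasts and muscle cells (chromosome 8, 93553919 to 93580048), was at 5256, 5222 and 4623 in bladder, 3362, 3319 and 3613 in intestine, and 2581 and 2858 in lung. Bladder was highest and lung lowest, without overlap. Mmp2 differed by -0.55 in intestine minus bladder (SE 0.07, adjusted p = 0.00016) and by -0.89 in lung minus bladder (SE 0.08, adjusted p = 2.91e-05). Lung minus intestine was -0.34 (SE 0.08, adjusted p = 0.00845), a call lost in limma without the intensity trend (adjusted p = 0.057). All tested genes in the density class of Mmp2, 1 read per nt or more, had medians of -0.40 in intestine and -0.42 in lung, relative to bladder. Mmp9, known from leukocytes and injured muscle (chromosome 2, 164782700 to 164797770), was at 311, 176 and 129 in bladder, 234, 206 and 195 in intestine, and 1043 and 1642 in lung. Lung was 6.54-fold above bladder and 6.34-fold above intestine, and bladder and intestine overlapped. Mmp9 differed by 2.76 in lung minus bladder (SE 0.34, adjusted p = 0.000185) and by 2.63 in lung minus intestine (SE 0.34, adjusted p = 0.000252). Mmp9 was higher in lung along with Mmp8, S100a8 and S100a9, although the 10 leukocyte markers in sum were lowest there. The part of these genes in the Mmp9 result was not tested either.

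Among the membrane-bound MMPs, Mmp14 and Mmp16 were highest in bladder, Mmp15 and Mmp24 in intestine and Mmp17 in lung. Mmp14, the activator of the MMP2 precursor (chromosome 14, 54669069 to 54682821), was at 6196, 6177 and 5512 in bladder, 3624, 3595 and 3823 in intestine, and 3970 and 4311 in lung. It was highest in bladder, with -0.69 (SE 0.06) in intestine and -0.53 (SE 0.07) in lung, but in lung this was lost with the deposited scaling undone (-0.01, adjusted p = 0.838) or quantile normalization (adjusted p = 0.386). Mmp16, a close relative of Mmp14 (chromosome 4, 17852893 to 18119145), was at 866, 836 and 947 in bladder, 352, 418 and 460 in intestine, and 153 and 76 in lung. It fell from bladder over intestine to lung, 7.71-fold lower in lung than in bladder. Mmp16 differed by -1.11 in intestine minus bladder (SE 0.23, adjusted p = 0.00293), by -3.02 in lung minus bladder (SE 0.26, adjusted p = 2.27e-05) and by -1.91 in lung minus intestine (SE 0.26, adjusted p = 0.000362). Mmp17, a lipid-anchored MMP known from vascular smooth muscle (chromosome 5, 129661233 to 129688163), was at 751, 733 and 843 in bladder, 2085, 1443 and 1476 in intestine, and 3372 and 2940 in lung. It went the other way, 4.07-fold above bladder in lung and 2.15-fold above it in intestine. Mmp17 differed by 2.02 in lung minus bladder (SE 0.16, adjusted p = 1.24e-05), by 1.09 in intestine minus bladder (SE 0.14, adjusted p = 0.000162) and by 0.94 in lung minus intestine (SE 0.16, adjusted p = 0.00123). Of 8 vascular smooth muscle and pericyte markers, 6 were also higher in intestine and 6 in lung than in bladder. Pdgfrb went the other way in intestine (-0.27, adjusted p = 0.0239). The 8 markers summed to 777 to 809 ppm in bladder, 2177 to 2285 in intestine and 1898 and 2196 in lung. Notch3 was at 273 to 347, 4612 to 4830 and 3707 and 3932, and Pdgfrb at 6692 to 6985, 5337 to 6010 and 5414 and 6911. The part of these markers in the Mmp17 result was not tested. Mmp15, known from epithelium (chromosome 8, 96078896 to 96101708), was at 88, 89 and 103 in bladder, 201, 341 and 356 in intestine, and 122 and 131 in lung. Intestine was above both others, as were the 8 epithelial markers in sum, at 1342 to 1434 ppm in intestine, 337 to 540 in bladder and 67 and 110 in lung. That sum was lower in lung than in bladder, whereas Mmp15 did not pass in this pair (0.44, adjusted p = 0.228). The part of the epithelial markers in the Mmp15 result was not tested. Mmp15 differed by 1.63 in intestine minus bladder (SE 0.24, adjusted p = 0.000378) and by -1.19 in lung minus intestine (SE 0.27, adjusted p = 0.00671). Mmp24 was at 13, 31 and 22 in intestine and at 0 or 1 elsewhere, and Mmp25, a lipid-anchored MMP of leukocytes, was at 5 to 20 in bladder, 6 to 29 in intestine and 0 in both lung libraries, at least 8.43-fold lower in lung than in intestine.

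Mmp11, stromelysin-3 of remodelling stroma (chromosome 10, 75759056 to 75772330), was at 1578, 1708 and 1905 in bladder, 775, 714 and 766 in intestine, and 1382 and 1606 in lung. Intestine was lowest, while bladder and lung overlapped; it shares bases with Chchd10 on the opposite strand, which was instead highest in intestine, at 465 to 508. Mmp11 differed by -1.20 in intestine minus bladder (SE 0.10, adjusted p = 7.87e-06) and by 0.99 in lung minus intestine (SE 0.11, adjusted p = 8.33e-05). Mmp19, a broadly made matrix MMP (chromosome 10, 128626779 to 128636693), was at 1015, 1140 and 1029 in bladder, 422, 418 and 356 in intestine, and 270 and 350 in lung. Bladder was 2.66-fold above intestine and 3.42-fold above lung. Mmp19 differed by -1.41 in intestine minus bladder (SE 0.13, adjusted p = 1.87e-05) and by -1.78 in lung minus bladder (SE 0.14, adjusted p = 1.59e-05). Mmp23, an MMP with a membrane-spanning precursor (chromosome 4, 155735112 to 155737841), was at 2893, 2876 and 2802 in bladder, 1127, 1330 and 1357 in intestine, and 1756 and 1885 in lung. Bladder was highest and intestine lowest, without overlap, with the lung difference lost when the deposited scaling was undone (adjusted p = 0.282). Mmp23 differed by -1.17 in intestine minus bladder (SE 0.08, adjusted p = 3.66e-06) and by -0.65 in lung minus bladder (SE 0.09, adjusted p = 0.000429). Mmp28, epilysin, was low, at 4 to 11 in bladder, 32 to 40 in intestine and 25 and 40 in lung, and was called lower in bladder than in both others. Mmp21 stayed at 7 or below and was not tested.

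Of 18 tested ADAMTS genes, 9 were lower and 3 higher than bladder in intestine, and 8 and 4 in lung. Among all tested genes, 23.3% were lower and 28.7% higher in intestine, and 21.8% and 19.2% in lung. With the deposited scaling undone the ADAMTS counts became 7 and 5, and 5 and 5. Under that setting 1937 of all 18097 tested genes were lower and 8312 higher in intestine, and 1907 and 7944 in lung. The median difference of the 18 was -0.61 in intestine and -0.54 in lung. The proteases that cut aggrecan and versican were not alike. Adamts1, which cuts versican and is induced in injured muscle (chromosome 16, 85590715 to 85600001), was at 8139, 9220 and 8080 in bladder, 8093, 7725 and 8240 in intestine, and 6108 and 4460 in lung. Bladder and intestine overlapped and lung was lower, but Adamts1 is densely read, and the difference from bladder was lost with quantile normalization (-0.21, adjusted p = 0.137) or the deposited scaling undone (-0.19, adjusted p = 0.257). Adamts1 differed by -0.70 in lung minus bladder (SE 0.12, adjusted p = 0.00126) and by -0.62 in lung minus intestine (SE 0.12, adjusted p = 0.00255). Under those same settings the value for Adamts1, intestine minus bladder, passed the test, at 0.404 (adjusted p = 0.00393) and 0.316 (adjusted p = 0.0447). Adamts4 (chromosome 1, 171077990 to 171088206) was at 2147, 2746 and 2224 in bladder, 1843, 1886 and 1787 in intestine, and 1316 and 1257 in lung. Bladder was highest and lung lowest, and the intestine difference was lost with the deposited scaling undone (adjusted p = 0.797) or quantile normalization (0.115). Adamts4 differed by -0.36 in intestine minus bladder (SE 0.09, adjusted p = 0.00995) and by -0.87 in lung minus bladder (SE 0.11, adjusted p = 0.00017). Adamts5, the neighbour of Adamts1, 53.1 kb away (chromosome 16, 85653061 to 85698716), was at 1908, 2032 and 1638 in bladder, 1248, 771 and 892 in intestine, and 1240 and 1048 in lung. Bladder was highest, with the lung call lost without bladder replicate 2 (adjusted p = 0.0525), without lung replicate 2 (0.0888) and with the deposited scaling undone (0.404). Adamts5 differed by -0.96 in intestine minus bladder (SE 0.17, adjusted p = 0.00106) and by -0.70 in lung minus bladder (SE 0.19, adjusted p = 0.0152). Adamts9, a versican protease needed in development, was at 358 to 477 in bladder, 118 to 163 in intestine and 163 and 196 in lung, highest in bladder. Adamts9 differed by -1.50 in intestine minus bladder (SE 0.19, adjusted p = 0.000136) and by -1.16 in lung minus bladder (SE 0.21, adjusted p = 0.00199). Its relative Adamts20 was at 47 to 111 in bladder and at 1 to 23 elsewhere, and passed only against intestine. Adamts20 differed by -3.61 in intestine minus bladder (SE 0.67, adjusted p = 0.00157).

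Adamts8 and Adamts15, which lie 20.1 kb apart on chromosome 9 with no other gene of the table between them, were both highest in lung. Adamts8, a protease rich in lung and heart (chromosome 9, 30853858 to 30875134), was at 505, 637 and 532 in bladder, 2500, 2618 and 2426 in intestine, and 3073 and 3150 in lung. Bladder was 4.51-fold below intestine and 5.58-fold below lung. Adamts8 differed by 2.18 in intestine minus bladder (SE 0.09, adjusted p = 3.63e-07) and by 2.48 in lung minus bladder (SE 0.10, adjusted p = 3.9e-07). The lung libraries also lay above those of intestine, but that call was lost when any intestine or lung library, or bladder replicate 3, was left out (adjusted p of 0.05 to 0.125). Adamts8 differed by 0.31 in lung minus intestine (SE 0.10, adjusted p = 0.0399). In sum, the vascular smooth muscle and pericyte markers given above were likewise lowest in bladder, although Pdgfrb was not. Their part in the Adamts8 result was not tested. Adamts15, a versican protease (chromosome 9, 30810451 to 30833748), was at 939, 920 and 727 in bladder, 1173, 868 and 760 in intestine, and 3980 and 1830 in lung. Bladder and intestine overlapped, and lung was above both. Adamts15 differed by 1.66 in lung minus bladder (SE 0.30, adjusted p = 0.00189) and by 1.56 in lung minus intestine (SE 0.30, adjusted p = 0.00277).

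Of the procollagen N-propeptidases, which trim fibrillar collagens before they assemble, Adamts2 (chromosome 11, 50492911 to 50698400) was at 10864, 11281 and 10063 in bladder, 4864, 4976 and 5151 in intestine, and 6072 and 7105 in lung. Bladder was highest and intestine lowest without overlap, the lung difference being -0.18 (adjusted p = 0.132) with quantile normalization. Adamts2 differed by -1.10 in intestine minus bladder (SE 0.07, adjusted p = 1.86e-06) and by -0.71 in lung minus bladder (SE 0.08, adjusted p = 8.46e-05). Adamts3, which also processes a lymphatic growth factor (chromosome 5, 89824946 to 90031193), was at 318, 282 and 230 in bladder, 38, 56 and 11 in intestine, and 51 and 51 in lung. Bladder was 7.90-fold above intestine and 5.42-fold above lung. Adamts3 differed by -3.20 in intestine minus bladder (SE 0.50, adjusted p = 0.000555) and by -2.40 in lung minus bladder (SE 0.56, adjusted p = 0.00769). Adamts14 (chromosome 10, 61032891 to 61109217) was at 227, 294 and 303 in bladder, 246, 168 and 88 in intestine, and 353 and 647 in lung. It passed in neither pair with bladder, and lung was called above intestine, a call lost without lung replicate 2 (1.19, adjusted p = 0.0905). Adamts14 differed by 1.63 in lung minus intestine (SE 0.41, adjusted p = 0.011). Of the pair that cuts cartilage oligomeric matrix protein, Adamts12 was at 157 to 216 in bladder, 120 to 204 in intestine and 538 and 670 in lung, where it was called higher than in both others. Adamts12 differed by 1.63 in lung minus bladder (SE 0.26, adjusted p = 0.000854) and by 1.97 in lung minus intestine (SE 0.26, adjusted p = 0.000267). Adamts7, a protease of injured vascular smooth muscle, was at 255 to 295, 286 to 320 and 192 and 236, and its single call, lung below intestine, was lost when any intestine library or lung replicate 1 was left out (adjusted p of 0.0508 to 0.122). Adamts7 differed by -0.51 in lung minus intestine (SE 0.16, adjusted p = 0.032).

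The fibrillin-binding proteases Adamts10 and Adamts6 were both lowest in intestine, although Adamts10 did not pass against bladder there with quantile normalization (adjusted p = 0.46) or the deposited scaling undone (0.939). Adamts10, mutated in a short-stature syndrome with lens dislocation (chromosome 17, 33743178 to 33772756), was at 3686, 4428 and 4404 in bladder, 3160, 3160 and 3096 in intestine, and 5315 and 4772 in lung. Lung was above intestine by 0.68 (SE 0.09, adjusted p = 0.000266), while its smaller excess over bladder, 0.28 (SE 0.09, adjusted p = 0.0318), was lost without bladder replicate 1, without any intestine library and without lung replicate 1 (adjusted p of 0.0545 to 0.154). Adamts6 was at 146 to 206 in bladder, 53 to 75 in intestine and 151 and 190 in lung. Adamts17, a relative of Adamts10 in function, was at 619 to 785 in bladder, 239 to 362 in intestine and 246 and 308 in lung, highest in bladder. Adamts17 differed by -1.21 in intestine minus bladder (SE 0.18, adjusted p = 0.000362) and by -1.34 in lung minus bladder (SE 0.20, adjusted p = 0.000601). Adamts19, whose loss affects heart valves, was at 59 to 82 in bladder, 230 to 441 in intestine and 26 and 29 in lung, with the order intestine, bladder, lung called in every pair, although lung against bladder was lost with the deposited scaling undone (adjusted p = 0.0634). Adamts19 differed by 2.25 in intestine minus bladder (SE 0.28, adjusted p = 0.000136), by -1.31 in lung minus bladder (SE 0.32, adjusted p = 0.00872) and by -3.56 in lung minus intestine (SE 0.32, adjusted p = 2.31e-05). Adamts13, which cuts von Willebrand factor and is known from liver, was at 73 to 186 in intestine, 0 to 2 in bladder and 0 and 3 in lung. Its intestine level was 119-fold that of bladder, where 3 reads were found in all, with a 95% counting interval of 40.3 to 577. Adamts16 (0 to 15) passed in no pair, and Adamts18 (0 to 17) was not tested.

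The ADAMTS-like genes lay mostly on the bladder side: 4 of 5 were lower in intestine and 5 of 5 lower in lung than in bladder, with medians of -1.31 and -0.90, and 4 of 5 and 3 of 5 with the deposited scaling undone. The shares of all tested genes called lower were 23.3% in intestine and 21.8% in lung. Adamtsl3 (chromosome 7, 81984902 to 82263658) was at 3605, 3807 and 3108 in bladder, 732, 919 and 717 in intestine, and 345 and 256 in lung. This was the largest fall of the family, 4.44-fold in intestine and 11.7-fold in lung. Adamtsl3 differed by -2.15 in intestine minus bladder (SE 0.14, adjusted p = 2.65e-06), by -3.55 in lung minus bladder (SE 0.16, adjusted p = 5.88e-07) and by -1.40 in lung minus intestine (SE 0.16, adjusted p = 0.000119). Adamtsl2, which binds latent TGF-beta binding protein and is mutated in geleophysic dysplasia (chromosome 2, 26969391 to 26998993), was at 2440, 2820 and 2725 in bladder, 543, 670 and 662 in intestine, and 1416 and 1436 in lung. Bladder was 4.26-fold above intestine and 1.87-fold above lung. Adamtsl2 differed by -2.09 in intestine minus bladder (SE 0.10, adjusted p = 5.23e-07) and by -0.90 in lung minus bladder (SE 0.11, adjusted p = 0.000198). Adamtsl5 (chromosome 10, 80174944 to 80184246) was at 3271, 3504 and 3369 in bladder, 1370, 1280 and 1431 in intestine, and 2744 and 2550 in lung. Bladder was again highest and intestine lowest, though its lung difference of -0.35 was lost with the deposited scaling undone (0.16, adjusted p = 0.168). Adamtsl5 differed by -1.31 in intestine minus bladder (SE 0.07, adjusted p = 6.92e-07). Adamtsl4, mutated in lens dislocation (chromosome 3, 95583511 to 95595228), was at 4314, 5045 and 4589 in bladder, 1711, 2161 and 2358 in intestine, and 2858 and 2404 in lung. Bladder was above both others, the lung call being lost with the deposited scaling undone (adjusted p = 0.112). Adamtsl4 differed by -1.17 in intestine minus bladder (SE 0.12, adjusted p = 4.18e-05) and by -0.82 in lung minus bladder (SE 0.14, adjusted p = 0.00116). Adamtsl1 (chromosome 4, 85432409 to 86346622) was at 2657, 2422 and 2449 in bladder, 3863, 3443 and 3325 in intestine, and 891 and 453 in lung. Here lung was 3.73-fold below bladder and 5.27-fold below intestine, while intestine, with values above those of bladder, did not pass (adjusted p = 0.0644). Adamtsl1 differed by -1.98 in lung minus bladder (SE 0.22, adjusted p = 0.000119) and by -2.48 in lung minus intestine (SE 0.22, adjusted p = 2.7e-05). The 9 fibroblast markers were higher in bladder as well, with medians of -0.54 in intestine and -0.79 in lung, and with quantile normalization 3 of 9 were lower in intestine and 8 of 9 in lung. Pdgfra, the marker with the largest lung difference (-3.12), was at 9933 to 11091 in bladder, 5947 to 6921 in intestine and 1203 and 1244 in lung. Other markers were higher in bladder too. Of 6 urothelium markers, 5 were lower and 1 higher in intestine, and 6 lower in lung, than in bladder. Of 6 mesothelium markers, 4 were lower in intestine and 5 in lung, and 0 higher in either. Of 10 leukocyte markers, 4 were lower and 2 higher in intestine, and 4 lower and 4 higher in lung. The part of all these markers in the bladder-high members was not tested.

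Summed over each family, TIMP genes held 1242 ± 64.9 ppm of all values in bladder (SD, n = 3), 955.7 ± 36.6 in intestine (n = 3) and 1182 ± 24.5 in lung (n = 2). MMP genes held 1557 ± 25.8, 1154 ± 20.2 and 1639 ± 161 ppm, ADAMTS genes 2571 ± 134, 2095 ± 22.2 and 2474 ± 164, and ADAMTSL genes 1363 ± 49.2, 730 ± 15.2 and 692 ± 63.6. Intestine was lowest for the first 3 families without overlap, and bladder was alone at the top for the fourth. These sums are dominated by the abundant, densely read genes, so they do not compare amounts of protein or of RNA molecules across families.

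The partners and substrates of these enzymes, in lists chosen for this purpose, mostly lay lower outside bladder as well. Of all tested genes, 23.3% were lower and 28.7% higher than bladder in intestine, and 21.8% and 19.2% in lung. With the deposited scaling undone, 1937 of the 18097 tested genes were lower and 8312 higher in intestine, and 1907 and 7944 in lung. Of 14 tested genes of protease activation and restraint, 7 were lower and 4 higher than bladder in intestine, and 8 and 3 in lung; with the deposited scaling undone these turned to 4 and 5, and 3 and 5. Plat, tissue plasminogen activator, was at 5162 to 5643 in bladder, 3430 to 3558 in intestine and 3437 and 3685 in lung. Lrp1, the receptor that clears proteases with their inhibitors, was at 16397 to 16944, 7320 to 8995 and 5640 and 7901. The membrane serine proteases Tmprss4 and Hpn, known from epithelium, were at 831 to 916 and 638 to 731 in intestine and at 35 or below elsewhere. Of 12 ADAM proteases, 7 were lower and 3 higher in intestine, and 7 lower and 1 higher in lung, than in bladder (6 and 4, and 5 and 2, with the deposited scaling undone). Adam33, a gene of smooth muscle and fibroblasts, was at 1553 to 1763 in bladder, 629 to 702 in intestine and 2758 and 3953 in lung. Adamdec1, a gut protease, was at 4104 to 4497 in intestine, 100 to 169 in bladder and 0 in lung, Adam23 at 3586 to 3731 in bladder, 136 to 258 in intestine and 337 and 625 in lung, and Adam12 at 486 to 589, 56 to 92 and 332 and 448.

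Of 10 proteoglycan genes and their cofactors, 5 were lower and 2 higher than in bladder in intestine and likewise in lung, with quantile normalization 2 and 2, and 4 and 3. Vcan, which encodes versican, the substrate of Adamts1, Adamts4, Adamts5, Adamts9, Adamts15 and Adamts20, was at 2413 to 2801 in bladder, 396 to 545 in intestine and 902 and 1052 in lung. Fbln1, a cofactor of Adamts1, was at 8024 to 9041, 5262 to 5685 and 3117 and 3675, Fbln2 at 9373 to 10567, 6469 to 6954 and 4703 and 5756, and Dcn, decorin, at 4461 to 5150, 3274 to 3605 and 2690 and 2970. Of 13 microfibril genes, 9 were lower and 2 higher in intestine, and 8 lower and 2 higher in lung, than in bladder. With the deposited scaling undone, 2 were lower and 6 higher in lung, where 1907 of all 18097 tested genes were lower and 7944 higher. Ltbp2 was at 5938 and 6053 in lung against 1135 to 1211 in bladder and 481 to 547 in intestine, while Ltbp3, Mfap2 and Mfap5 were highest in bladder, at 6621 to 6892, 2113 to 2326 and 3129 to 3507. All 10 tested collagen genes were lower in intestine and in lung than in bladder, but with quantile normalization 3 were lower and 2 higher in each pair. Of all tested genes, 23.3% and 21.8% were lower, and of those with 1 read per nt or more, 75.8% and 74.0%. Col5a1 and Col5a2 of type V collagen were at 14147 to 15472 and 9402 to 10374 in bladder, 6183 to 7721 and 4918 to 5619 in intestine, and 8651 to 10490 and 6092 to 6884 in lung. Col1a2 was at 12242 to 13958, 8757 to 9601 and 8466 and 9043, and Col6a2 at 9584 to 10838, 6441 to 7032 and 6159 and 6575.

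Members were spread over the range of read density. Of the 46 tested members, 3 averaged 1 read per nt or more and 8 had 0.5 to 1. In the latter range, 57.7% of all 1294 tested genes were called below bladder in intestine and 44.3% in lung, with medians of -0.28 (SD over genes 1.32) and -0.18 (SD 0.88). Timp1, Mmp23, Adamts2, Mmp14, Adamtsl4, Timp3, Mmp3 and Adamtsl5 lie in that range, with differences from bladder that run from -1.76 (Timp1, intestine) to 2.28 (Mmp3, lung). Below 0.5 reads per nt the medians of all genes were between -0.04 and 0.53 in intestine and between 0 and 0.02 in lung, with SDs over genes of 1.23 to 2.18. The part of read density in the members' differences was not tested.

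**Figure D5:**
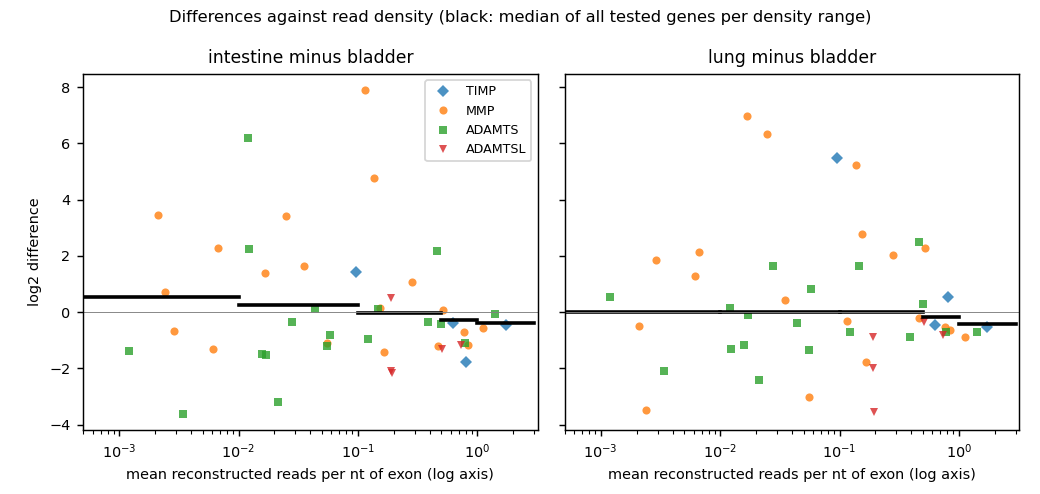
Log2 difference from bladder of the 46 tested genes against their mean reconstructed reads per nt of exon (log axis), for intestine (left) and lung (right), with the median of all tested genes in each density range as a black line. The line falls to -0.40 and -0.42 at 1 read per nt and above, where Timp2, Adamts1 and Mmp2 lie.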

How the data were processed

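The deposited values are scores: normalized read counts per gene that the authors scaled between libraries and rounded, on genome mm39. Per the submitters' processing notes, Trimmomatic 0.39, STAR 2.7.10a, Picard 3.0.0, featureCounts 2.0.4 and DESeq2 1.36.0 were used; not given in the sources used here are their roles, order, strand setting and gene annotation release. Per the labels' protocols, at most 10 ng of RNA entered SMART-Seq v4, which does not mark strand.

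The 18097 genes reaching 10 in 2 or more libraries were tested with limma 3.58.1 (R 4.3.3, intensity trend) on log2(value + 1) over all 8 libraries, with Benjamini-Hochberg adjustment over all of them; fold differences of low genes are understated on this scale. The script was tested on simulated data. The spacing of each library's whole values gave the value of 1 read (0.822 to 1.268), and from it reads, floors of 3 reads (a value of 2.466 to 3.804, covering counting error only) and reads per nt of exon, with GENCODE lengths for 96.8% of genes. Promoters are from RefSeq. The alternatives were other pseudocounts, filters, scalings and models, a replicate block, and leaving out each library. The members and lists were chosen with earlier results of these data known. Members passing the F test with a tissue mean of at least 100 are given by library, other members by range, and from each list up to 4 genes of smallest F-test p are named.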

Additional observations from a re-analysis of the deposited data

How the results depend on the processing

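Of 99 calls of members over the 3 pairs of tissues, 76 were kept under every alternative that gave a value. For 9 of the 99, calls of Mmp8, Mmp12, Mmp24, Mmp25 and Mmp28, at least 1 alternative left the gene untested. With the deposited scaling undone, 12 members were called below bladder in lung and 9 were highest in bladder. With quantile normalization, 16 were lowest in intestine, in place of 8. Leaving out each library in turn gave 7 to 11 members highest in lung. Among differences called in either setting, signs turned with the deposited scaling undone for Adamts1 (0.316) and Adamts4 (0.035) in intestine minus bladder, Adamtsl5 (0.158) in lung minus bladder, and Timp3 in both (0.009 and 0.069), and with quantile normalization for Adamts1 (0.404) and Timp3 (0.006) in intestine minus bladder and Timp3 (0.011) in lung minus bladder. The cause was not tested. Over all genes, the share of calls that were higher was 55.2% for intestine minus bladder, 46.7% for lung minus bladder and 40.3% for lung minus intestine. It became 61.8%, 58.5% and 45.9% with equal totals, 41.7%, 50.3% and 59.5% with quantile normalization, and 81.1%, 80.6% and 51.0% with the deposited scaling undone.

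Libraries with the same number did not deviate together from their tissue means (correlations of -0.026 to 0.058). With so few libraries per tissue, these values cannot decide whether the numbers mark shared mice. With the replicate block, 12 members were higher and 22 lower in intestine than in bladder, 12 and 22 in lung than in bladder, and 18 and 12 in lung than in intestine, and 42 differed among the tissues. Where a left-out library leaves lung with 1 sample, that sample is assumed to vary like the other groups. Depth limits the genes near the floor of 3 reads, such as Mmp21, Adamts18 and Mmp25.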
